A study of Mus musculus with 4 samples.

Results

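The data described here are those of 9 genes, 8 that encode proteins or enzymes of the myelin sheath (*Mbp*, *Mag*, *Mog*, *Cnp*, *Mobp*, *Mal*, *Cldn11* and *Ugt8a*) and *Myrf*, which encodes a transcription factor of oligodendrocytes. They were listed by gene symbol, with earlier results of these data known, and all 9 were found among the 32285 genes counted. Their levels were followed through the 3610 cells of the oligodendrocyte lineage, out of 17623 cells kept from 4 libraries, and compared between *Chd8* heterozygous mutant and control mice.

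Cells were sorted by tdTomato fluorescence from the telencephalon (cortex and striatum, without olfactory bulb and thalamus) of C57BL/6 mice at postnatal day 5, and single-cell RNA sequencing was performed with the 10x Genomics 3′ chemistry. All mice carried NestinCreERT2, a Cre recombinase active after tamoxifen in neural progenitors that express *Nestin*, and a tdTomato reporter that recombination switches on. Tamoxifen was given at the midfetal stage to both groups, so that the label is meant to mark progenitors recombined at that time and their progeny. Control mice were NestinCreERT2/tdTomato/Chd8+/+. Mutant mice were NestinCreERT2/tdTomato/Chd8+/F, in which recombination deletes a part of 1 allele of *Chd8*, the gene of a chromatin remodeler. There were 2 libraries per genotype, each pooled from 3 mice, so that p-values measure the spread between pools and not between animals. The labels describe the sorted cells as neuronal cells, but cells of the oligodendrocyte lineage and of 13 other kinds were found among them by their markers. These kinds included 362 microglia-like and 166 endothelial cell-like cells, and whether every sorted cell had recombined was not tested.

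Oligodendrocytes arise from oligodendrocyte progenitor cells (OPCs), which divide, leave the cell cycle as committed oligodendrocyte precursors (COPs) and then mature into oligodendrocytes (OLs) that wrap axons in myelin. Myelin genes are silent or low in OPCs and are switched on together as the cells mature, under the control of transcription factors that include Sox10 and Myrf. Myrf is made as a membrane protein that cuts itself, and the freed fragment enters the nucleus and binds near myelin genes. In the telencephalon of the mouse, most myelin is made after the first postnatal week.

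The DNA upstream of the members is shown because Sox10 and Myrf are known to act there. RefSeq promoter windows on GRCm38.p6 were found for 7 of the 9 members, with 9 entries in all, and none was found for *Mbp* and *Myrf*. The 250 bases before each start were searched on both strands for the letters ACAAAG and ACAATG, which Sox factors bind, and CTGGCAC and CTGGTAC, which resemble the site of Myrf. No 2 matches overlapped in a window of a member. The word CTGGCAC occurred upstream of *Mag* and *Cnp*, and in 4.19% of all 32851 promoter windows of that length. CTGGTAC occurred upstream of *Mog* and in 1.83% of all windows. ACAAAG occurred upstream of *Mag*, *Cnp* and *Mobp* and in 16.5% of all windows, while ACAATG was upstream of no member and in 10.7% of windows. A word was found in 5 of the 9 windows. The second of the *Mag* entries that held one overlaps the first and has the same matches, so 4 windows are printed 5′ to 3′ along the gene, with every match in capitals as it reads on that strand. They lie at chr7:30914864-30915113 (*Mag*, minus strand, the first of its 3 entries), chr11:100574689-100574938 (*Cnp*, plus strand), chr9:120149492-120149741 (*Mobp*, plus strand) and chr17:37023399-37023648 (*Mog*, minus strand). A match is a description of the letters and no evidence of binding.
Mag: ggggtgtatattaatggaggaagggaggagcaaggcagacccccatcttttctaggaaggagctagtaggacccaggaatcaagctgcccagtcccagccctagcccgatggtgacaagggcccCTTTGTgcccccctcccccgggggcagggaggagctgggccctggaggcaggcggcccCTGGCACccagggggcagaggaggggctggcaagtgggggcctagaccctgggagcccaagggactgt
Cnp: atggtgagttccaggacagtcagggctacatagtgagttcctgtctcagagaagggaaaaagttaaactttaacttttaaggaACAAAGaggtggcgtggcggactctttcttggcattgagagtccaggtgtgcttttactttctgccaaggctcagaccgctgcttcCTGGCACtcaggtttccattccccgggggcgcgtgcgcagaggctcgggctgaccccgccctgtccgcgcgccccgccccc
Mobp: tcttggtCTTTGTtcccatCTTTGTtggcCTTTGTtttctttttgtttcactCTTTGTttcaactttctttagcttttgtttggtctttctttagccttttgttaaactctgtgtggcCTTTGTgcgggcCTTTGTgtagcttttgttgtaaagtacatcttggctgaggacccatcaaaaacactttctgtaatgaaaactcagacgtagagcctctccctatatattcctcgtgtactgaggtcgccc
Mog: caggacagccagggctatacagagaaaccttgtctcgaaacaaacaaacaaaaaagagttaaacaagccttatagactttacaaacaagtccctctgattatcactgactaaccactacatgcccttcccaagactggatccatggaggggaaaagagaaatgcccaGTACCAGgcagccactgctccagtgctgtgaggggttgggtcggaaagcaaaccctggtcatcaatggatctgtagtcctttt
In *Mag*, ACAAAG lay on the opposite strand, 126 to 121 bases before the start, and CTGGCAC on the same strand, 68 to 62 bases before it. In *Cnp*, both words lay on the same strand as the gene, 167 to 162 and 81 to 75 bases before the start. The window of *Mobp* held ACAAAG 6 times, all on the opposite strand and between 243 and 115 bases before the start. In *Mog*, CTGGTAC lay on the opposite strand, 83 to 77 bases before the start.

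The matrices held 46274374 to 79328841 UMIs (unique molecular identifiers, each of which marks 1 captured transcript) over 6107 to 7279 barcodes per library. Because the 3′ chemistry reads transcripts at 1 end, levels are given without division by length, as counts per 1e6 UMIs of the summed cells (CPM). Whether reads in introns were counted is not known for any of the libraries. The filters kept 79.1% and 79.3% of the barcodes of the replicate 1 libraries (control and mutant) but 48.7% and 45.1% of those of replicate 2, and 44.0% and 37.8% of the replicate 2 barcodes were over the mitochondrial limit. The headers named Cell Ranger 7.0.0 for replicate 1 and 5.0.1 for replicate 2, and sex-linked genes divided the libraries in the same way. *Xist*, transcribed from the inactive X chromosome of female cells, was at 0.268 and 0.172 CPM in the lineage cells of control and mutant replicate 1 and at 2191 and 2533 CPM in those of replicate 2, while the Y-linked gene *Uty* was at 93.4 and 89.0 CPM in replicate 1 and 0.192 and 0.832 CPM in replicate 2. The labels give no sex. The study's reporting summary describes male mice for single-cell sequencing, which the replicate 2 libraries go against. Its methods name both sexes for postnatal experiments in general. Replicate number, software version and sex of the mice cannot be told apart, and both genotypes have 1 library of each kind. The libraries or the replicates are therefore shown apart. The libraries shared 2 to 15 cell barcodes in pairs. In the lineage cells, *Chd8* was counted at 62.0 and 110 CPM in the controls (replicates 1 and 2) and at 71.4 and 115 CPM in the mutants. Where along the gene these UMIs lie was not examined, so this level does not check the genotype.

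The lineage was divided into 5 steps by markers that exclude the 9 genes, after clustering that left them and other myelin genes out. There were 641 dividing OPC-like cells, 2381 OPC-like cells, 265 early and 164 late COP-like cells, and 159 OL-like cells. The OL-like cells numbered 49 and 12 in control replicates 1 and 2 and 80 and 18 in mutant replicates 1 and 2. *Pdgfra*, the growth factor receptor that defines OPCs, was at 1461 CPM in OPC-like and 6.53 CPM in OL-like cells. *Enpp6*, an enzyme of newly formed oligodendrocytes, was at 0.912 CPM in OPC-like, 371 CPM in early COP-like, 1085 CPM in late COP-like and 1878 CPM in OL-like cells. Of 9 listed OL markers, 4 were found in at least 10% of OL-like cells (*Enpp6*, *Tspan2*, *Plekhb1* and *Gpr37*). The markers of mature oligodendrocytes *Opalin* (9.16 CPM), *Ermn* (1.36 CPM) and *Aspa* (0.545 CPM) were near 0 there, and the COP markers *Bcas1* (3956 CPM) and *Gpr17* (453 CPM) were abundant. The 9 OL markers summed to 481 ± 87.0 CPM in early COP-like, 1273 ± 172 CPM in late COP-like and 2237 ± 238 CPM in OL-like cells (SD, n = 4). The 6 COP markers summed to 6679 ± 732, 9940 ± 524 and 8920 ± 615 CPM in the same steps, so that on average the OL-like cells held more of them than early and less than late COP-like cells. Early COP-like, late COP-like and OL-like cells are 3 parts of 1 cluster. The part with the highest mean log2 level of the 9 OL markers was called OL-like, and the others were ordered by OL against OPC markers. The rise of the OL markers, *Enpp6* among them, over these parts therefore follows from the naming and is no support of it. Against the other parts, the leading genes of the early COP-like cells held the astrocyte marker *Slc1a3* and none of the COP markers. The 7 astrocyte markers summed to 372 ± 247 CPM in early COP-like, 88.0 ± 52.3 CPM in late COP-like and 685 ± 154 CPM in OPC-like cells.

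Within the lineage, all 9 genes had their highest mean level in OL-like cells, but for *Mal* this rested on 23 UMIs of 1 cell in mutant replicate 1, without which it was at 0 there. Steps are clusters of the same cells, so their levels are compared as a description and without a test. Of the 8 members that reached 20 CPM in a step, all 8 were higher in OL-like than in OPC-like cells with no overlap between the 4 libraries of each step. Over all 8717 genes at that level, 13.1% were so ordered. The median log2 ratio of OL-like to OPC-like was 5.83 for those 8 members and −0.29 for all genes. *Mog* and *Mobp* reached 20 CPM in OL-like cells alone, and *Mobp* mostly through the same single cell. Without that cell *Mobp* was at 12.8 CPM, and the median of the remaining 7 members was 5.48. Members that reach the limit only in OL-like cells had to differ, so these counts are a description.

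*Myrf* (ENSMUSG00000036098, chr19:10208272-10240748 on mm10, minus strand) was low but present before commitment. Its level was 8.99, 9.77, 8.05 and 12.8 CPM in the OPC-like cells of control replicates 1 and 2 and mutant replicates 1 and 2. In early COP-like cells it was 79.0, 118, 105 and 118 CPM, in the same order of libraries, with every library far above the OPC-like range. It was 172 ± 31.5 CPM (SD, n = 4) in late COP-like and 249 ± 49.8 CPM in OL-like cells. *Myrf* therefore had its largest step, 10.6-fold, between OPC-like and early COP-like cells, where it was already at 42.1% of its OL-like level.

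Of the structural proteins of compact myelin, *Mbp* (ENSMUSG00000041607, chr18:82475146-82585637, plus strand) encodes myelin basic protein, which holds the inner faces of the membrane together. It was at 6079, 7390, 6171 and 9217 CPM in OL-like cells of control replicates 1 and 2 and mutant replicates 1 and 2, the highest level of the 9 genes in every library. Mean levels were 45.2 ± 5.18 CPM in OPC-like, 511 ± 201 CPM in early COP-like, 2499 ± 868 CPM in late COP-like and 7214 ± 1463 CPM in OL-like cells (SD, n = 4). The ranges of adjacent steps did not overlap from OPC-like onward. *Mobp* (chr9:120149707-120181484, plus strand) encodes myelin-associated oligodendrocytic basic protein, a later component of compact myelin, and *Mal* (chr2:127633226-127656695, minus strand) a membrane protein of lipid-rich domains. Both were under 10 CPM in 3 of the 4 libraries at every step and are described with the cells that held them.

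*Cnp* (ENSMUSG00000006782, chr11:100574904-100591729, plus strand) encodes a phosphodiesterase that keeps channels of cytoplasm open in myelin, and *Ugt8a* (chr3:125865271-125938619, minus strand) the transferase that makes galactosylceramide, a main lipid of myelin. These 2 genes were already present in OPC-like cells. *Cnp* was there at 109, 151, 85.1 and 169 CPM in control replicates 1 and 2 and mutant replicates 1 and 2, and *Ugt8a* at 122, 124, 125 and 88.2 CPM. In OL-like cells *Cnp* was at 2591, 4165, 2693 and 4878 CPM, with both replicate 2 libraries above both replicate 1 libraries. *Ugt8a* was at 932, 1277, 1080 and 1079 CPM, a narrower range that did not follow the replicate. The ratio of OL-like to OPC-like was 27.9-fold for *Cnp* and 9.51-fold for *Ugt8a*, the smallest ratio of the 9 genes. *Cnp* overlaps *Dnajc7*, which lies on the other strand.

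*Mag* (ENSMUSG00000036634, chr7:30899176-30914873, minus strand) and *Mog* (chr17:37010743-37023398, minus strand) encode adhesion proteins of the immunoglobulin family, Mag on the myelin membrane that faces the axon and Mog on the outer surface of the sheath. *Mag* was nearly absent from OPC-like cells, at 1.19, 0, 0.340 and 1.09 CPM in control replicates 1 and 2 and mutant replicates 1 and 2. It was at 34.2 ± 3.04 CPM in early COP-like and 345 ± 165 CPM in late COP-like cells (SD, n = 4). In OL-like cells *Mag* was at 799, 1329, 1027 and 1208 CPM, 1667-fold over the OPC-like mean of 0.654 CPM, which rested on 14 UMIs in all. *Mog* stayed low, at 66.0, 59.7, 108 and 40.1 CPM in OL-like cells. Its ranges in early and late COP-like cells overlapped, since control replicate 2 had no *Mog* UMI in its 7 late COP-like cells.

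*Cldn11* (ENSMUSG00000037625, chr3:31149920-31164324, plus strand) encodes claudin 11, which forms the tight junctions between layers of myelin. It was at 453, 903, 625 and 1092 CPM in OL-like cells of control replicates 1 and 2 and mutant replicates 1 and 2, with both replicate 2 libraries above both replicate 1 libraries. Its ranges overlapped between early and late COP-like and between late COP-like and OL-like cells. It also differed among the OPC-like cells. Dividing OPC-like cells held 24.0, 31.5, 16.1 and 30.2 CPM and OPC-like cells outside division 3.56, 7.68, 2.95 and 11.7 CPM, without overlap of the libraries. A *Cldn11* UMI was found in 4.68% of dividing and in 0.882% of other OPC-like cells after every cell was thinned to 2000 UMIs (exact 95% intervals, counting error only, 3.18 to 6.61% and 0.547 to 1.35%). None of the other 8 members was higher in dividing than in other OPC-like cells in every library.

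**Figure D1:**
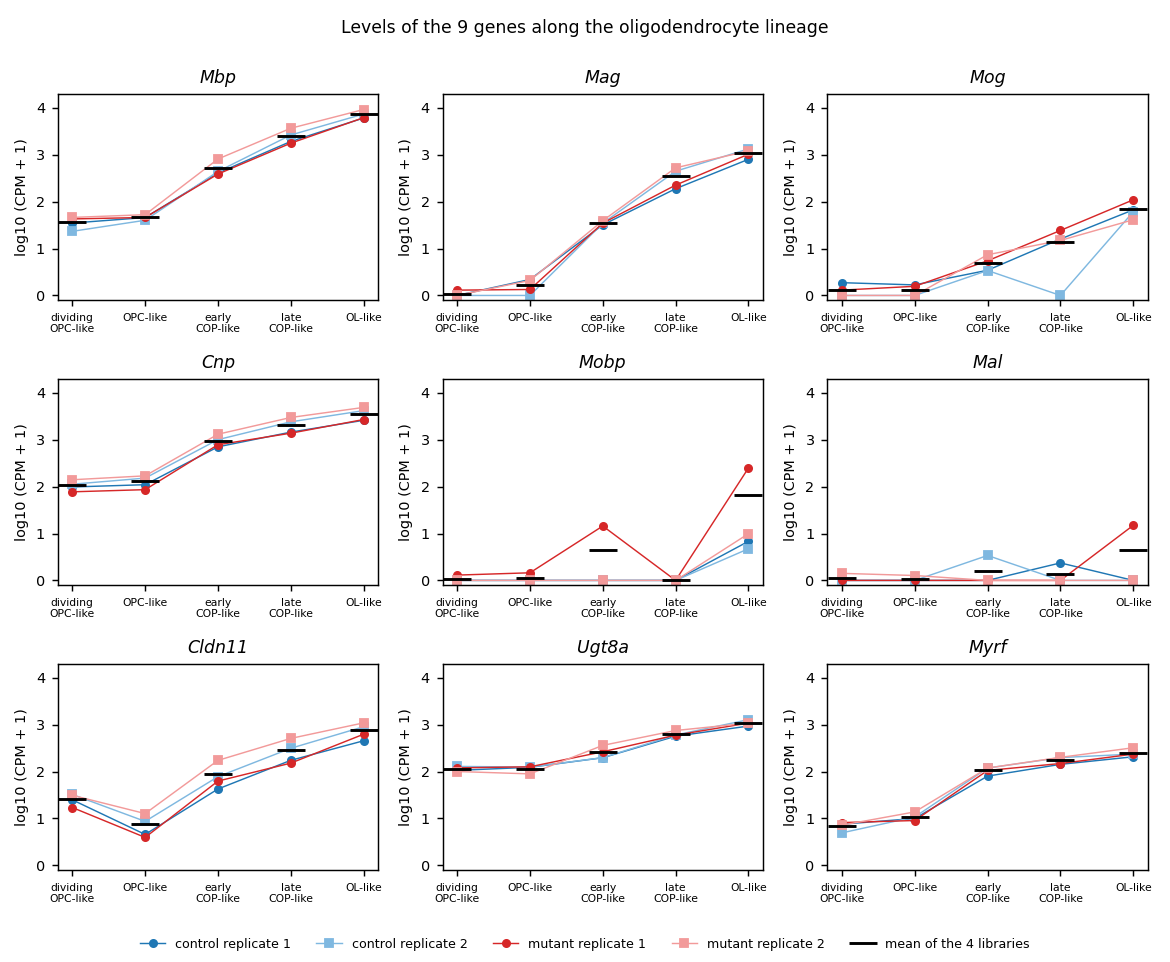
Level of each gene, as log10 of CPM + 1, at the 5 steps of the oligodendrocyte lineage in each of the 4 libraries (circles, replicate 1, squares, replicate 2, blue, control, red, mutant), with a black bar at the mean. From OPC-like to OL-like cells *Mbp*, *Mag*, *Cnp*, *Cldn11*, *Ugt8a* and *Myrf* climb in all 4 libraries, and *Mobp* and *Mal* are raised in OL-like cells mainly in mutant replicate 1, at 248 and 13.9 CPM.

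The members approached their OL-like level at different steps. In early COP-like cells, *Myrf* was at 42.1%, *Cnp* at 26.5% and *Ugt8a* at 23.3% of the OL-like mean, against 11.5% for *Cldn11*, 7.08% for *Mbp*, 5.73% for *Mog* and 3.13% for *Mag*. In each of the 4 libraries the *Myrf* share (36.8 to 50.1%) was above that of *Mbp* (5.95 to 8.79%) and of *Mag* (2.53 to 3.87%). In late COP-like cells the shares were 68.9% for *Myrf*, 57.6% for *Ugt8a*, 57.3% for *Cnp*, 37.2% for *Cldn11*, 34.6% for *Mbp*, 31.7% for *Mag* and 19.0% for *Mog*.

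COP-like and OL-like cells were also ranked on the first principal component of genes that exclude the members. In 8 groups of 73 or 74 cells, *Myrf*, *Cnp* and *Ugt8a* reached 50% of their highest level in earlier groups than the others. *Gpr17* was at 778 CPM in group 1 and 338 CPM in group 8, and *Enpp6* at 146 and 1854 CPM. *Myrf* first reached 50% of its highest level in group 5, *Cnp* and *Ugt8a* in group 6, *Mbp*, *Mag* and *Cldn11* in group 7, and *Mog*, *Mobp* and *Mal* in group 8. In group 4, *Myrf* was at 48.8%, *Cnp* at 39.6% and *Ugt8a* at 34.8% of the highest level, and *Mag* at 9.78% and *Mog* at 9.07%. *Myrf* started at 73.4 CPM in group 1 and ended at 251 CPM in group 8, and *Mag* at 5.95 and 1213 CPM. A gene that starts at a larger share of its maximum reaches 50% sooner, so the groups do not give an order of onset. As a fold of early COP-like over OPC-like cells, *Mag* rose 52.2-fold, *Myrf* 10.6-fold and *Ugt8a* 2.21-fold. These ranks use the same cells as the steps and are no independent support of them. Cells of later groups also held more UMIs, with medians of 12897 in group 1 and 21618 in group 8.

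**Figure D2:**
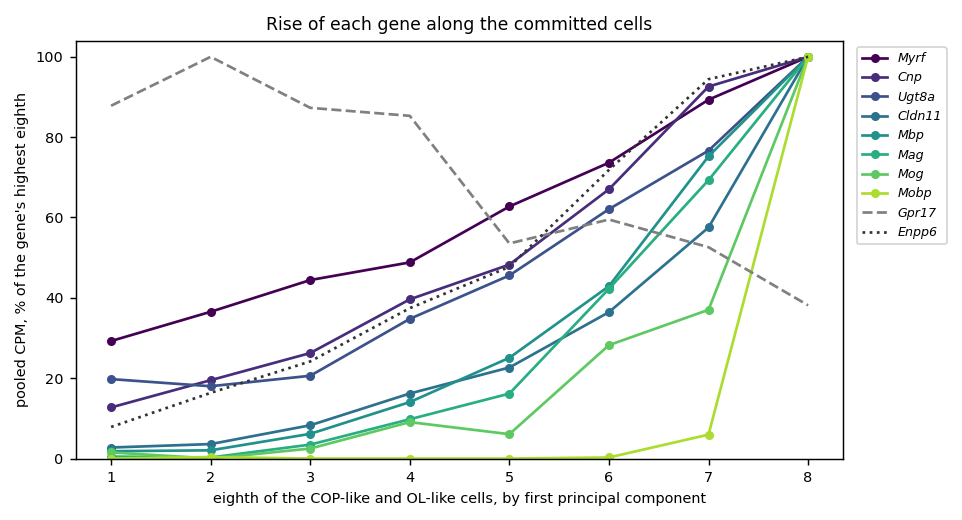
Pooled CPM of 8 members in 8 successive groups of COP-like and OL-like cells ordered by their first principal component, as a percentage of the highest group of each gene, with *Gpr17* (dashed) and *Enpp6* (dotted) for orientation. *Myrf* is the highest of the members through group 5, at 48.8% of its maximum in group 4, and *Mobp* is at 0 or close to it through group 6.

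At the level of single cells, members were counted after thinning to 2000 UMIs per cell, because OL-like cells were deeper (median 23126 UMIs) than OPC-like cells (8791 UMIs). *Mbp* was found in all 159 OL-like cells, *Cnp* in 97.5% and *Ugt8a* in 83.0% of them. *Mag* was found in 79.9%, *Cldn11* in 59.1%, *Myrf* in 31.4% and *Mog* in 8.18% of OL-like cells, and before thinning *Myrf* was found in 94.3% and *Mog* in 40.3%. In OPC-like cells *Ugt8a* (21.6%), *Cnp* (18.6%) and *Mbp* (8.99%) were the members found most often. In inhibitory neuron-like cells (median 6430 UMIs) the share was 5.80% for *Mbp* and 3.32% for *Cnp*. For *Mbp* it was 4.97% in excitatory neuron-like and 1.27% in astrocyte-like cells. The *Mbp* share of OPC-like cells is to be read beside these values. How much of them is free RNA was not tested. The mean number of members found per cell was 0.525 in OPC-like, 1.69 in early COP-like, 3.39 in late COP-like and 4.62 in OL-like cells. At least 5 members were found together in 1.13% of early COP-like, 18.3% of late COP-like and 57.2% of OL-like cells, and in none of the 2381 OPC-like cells, which allows a share of up to 0.126%.

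Summed over the libraries, most of the UMIs of 8 of the 9 members came from COP-like and OL-like cells, a small part of the 17623 cells. These cells held 95.5% of the *Mag*, 92.8% of the *Mobp*, 89.8% of the *Mbp*, 81.3% of the *Myrf*, 76.9% of the *Cldn11* and 75.9% of the *Mog* UMIs. The enzymes were less restricted, at 57.6% for *Ugt8a* and 52.3% for *Cnp*. In the library with the lowest share it was 42.2% for *Ugt8a*, 36.1% for *Cnp* and 20% for *Mobp*, so that for these 3 genes it was not most of the UMIs in every library. OPC-like cells held 33.0% of the *Ugt8a* UMIs, and cells outside the lineage held 37.9% of the *Cnp* UMIs. *Cnp* was at 177 CPM in ependymal cell-like and 101 CPM in astrocyte-like cells, with a UMI in 27.9% and 18.1% of them after thinning, against 3.32% in inhibitory neuron-like cells.

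*Cldn11* and *Mal* each had a second site outside the lineage. *Cldn11* was at 240, 119, 212 and 517 CPM in the 103 fibroblast-like cells of control replicates 1 and 2 and mutant replicates 1 and 2, with a UMI in 35.0% of them after thinning and in under 1% of every other type outside the lineage. *Mal* was nearly absent from the lineage, where COP-like and OL-like cells held 3.13% and OPC-like cells 0.250% of its 799 UMIs. In endothelial cell-like cells *Mal* was at 33.9, 55.3, 60.3 and 90.3 CPM in the same order of libraries, and a UMI was found in 16.9% of the 166 cells after thinning. Astrocyte-like cells held 444 of the 799 *Mal* UMIs at a level of only 6.18 CPM.

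**Figure D3:**
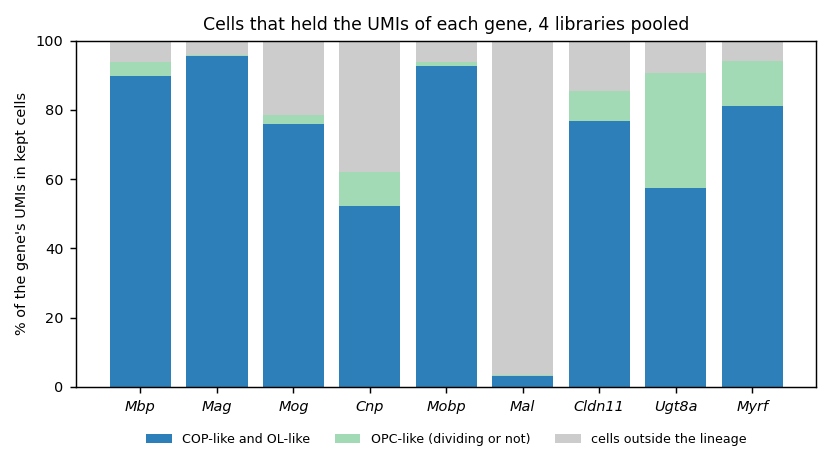
Share of all UMIs of each gene in kept cells of the 4 libraries pooled (vertical axis, %), split between COP-like and OL-like cells (blue), OPC-like cells, dividing or not (green), and cells outside the lineage (grey). The blue part runs from 3.13% for *Mal* to 95.5% for *Mag*.

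*Mobp* was counted mainly in a few cells of 1 library. Its OL-like sums were 6 and 1 UMIs in control replicates 1 and 2, and 410 and 4 UMIs in mutant replicates 1 and 2. Of the 410 UMIs, 357 (87.1%) came from a single cell of 33345 UMIs. That cell also held all 23 *Mal* UMIs, 75 of the 179 *Mog* UMIs and 296 of the 1694 *Mag* UMIs of the OL-like cells of mutant replicate 1, together with only 22 UMIs of *Enpp6* and 4 of *Gpr17*. Without it *Mobp* was at 5.82, 3.73, 32.8 and 8.91 CPM in the OL-like cells of control replicates 1 and 2 and mutant replicates 1 and 2, *Mal* was at 0 in all 4, and *Mog* was at 66.0, 59.7, 64.3 and 40.1 CPM. Barcodes with at least 10 *Mobp* UMIs were found in mutant replicate 1 and in no other library, 3 among kept cells and 10 among removed barcodes. Of those removed, 6 lay above the ceiling of 40000 UMIs, and 5 of these held 117 to 589 *Mobp* UMIs each with 446 to 1108 *Mbp* UMIs and 3 to 68 *Enpp6* UMIs. Barcodes above the ceiling numbered 70 and 19 in the controls and 72 and 30 in the mutants. Whether these *Mobp*-rich barcodes are single cells was not tested. Scrublet marked 2.50% and 2.60% of the cells of the replicate 1 libraries and under 0.5% of those of replicate 2 as doublets. Removing the marked cells left the OL-like values as they were, so the kept cell with 357 *Mobp* UMIs was not marked. Removed barcodes were not scored.

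**Figure D4:**
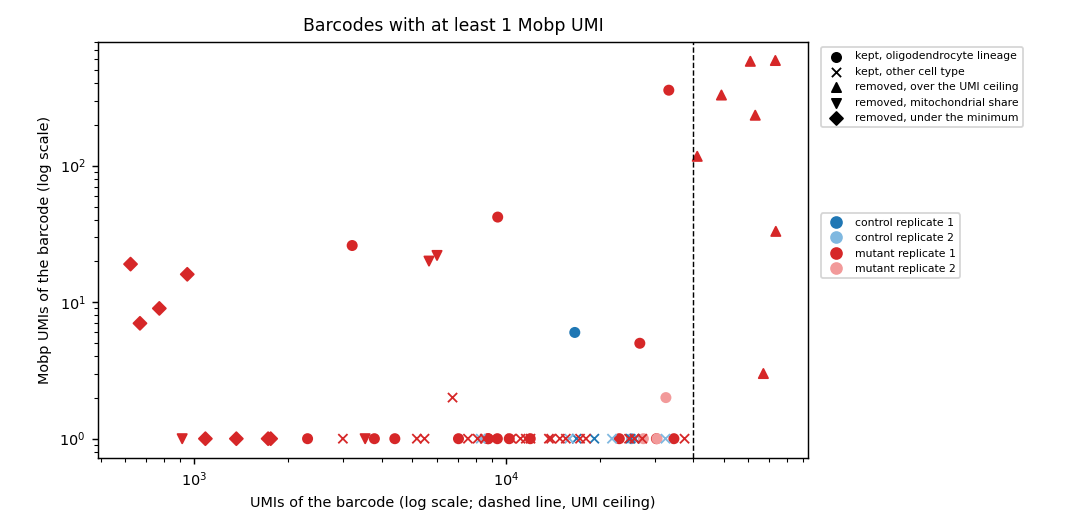
*Mobp* UMIs (vertical, log scale) against all UMIs (horizontal, log scale) of every barcode with at least 1 *Mobp* UMI, by library (colour) and by whether the barcode was kept (marker shape), with a dashed line at the ceiling of 40000 UMIs. Every barcode with 10 or more *Mobp* UMIs is from mutant replicate 1, and the kept cell with most holds 357.

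The other genes of the myelin program were taken from a list of 33, of which 22 reached 20 CPM in a step. Of these, 19 were higher in OL-like than in OPC-like cells without overlap of the libraries, with a median log2 ratio of 3.96, and 1 (*Omg*) was lower. Genes of the list that reached 20 CPM only in OL-like cells had to be higher there on average, so these counts too are a description. *Lpar1* (6.76), *Adamts4* (5.92), *Tmem88b* (5.81) and *Nfasc* (5.04) had log2 ratios among the highest of the list. Over all genes, 29.7% were lower in OL-like than in OPC-like cells without overlap. Of 17 regulators of the lineage, 7 were higher and 4 lower in OL-like cells, the latter a share of 23.5%. *St18* (7.53) and *Tcf7l2* (3.66), a transcription factor of early differentiation, were higher, although *St18* was at 1468 and 1524 CPM in the replicate 1 libraries and at 131 and 78.0 CPM in those of replicate 2. *Myt1* (−2.78), *Olig1* (−1.85), *Olig2* (−0.87) and *Chd7* (−0.86) were lower. Of 11 genes listed as marking earlier steps or holding back differentiation, 7 were lower and 1 (*Klf9*, 2.91) was higher. *Klf9* was at 40.6 CPM in OPC-like and 311 CPM in OL-like cells, so its place in that list is not borne out here.

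The 20 sums of step and library hold separate cells, but those of 1 library come from the same mice. Over these sums, the gene most like the mean profile of the members was *Rap2a* (Pearson r = 0.979), among 7219 genes. It was followed by *Pdcd4* (0.979), *Gltp* (0.974), *Parvb* (0.972) and *Pacs2* (0.970). *Tmem88b* (0.992) and *Pfn2* (0.991) were among the genes nearest to *Myrf*. Among the members, the profile of *Cnp* (0.982) was nearest to *Myrf*, then *Mag* (0.970) and *Mbp* (0.969), and *Mobp* (0.454) and *Mal* (0.268) were farthest.

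Whether the levels changed with *Chd8* genotype was asked at each step by edgeR's quasi-likelihood test on counts summed per library, with Benjamini-Hochberg adjustment over all genes tested. No member passed an adjusted p of 0.05 in OL-like, COP-like or OPC-like cells or in the lineage as a whole. No gene at all was called in the 4 tests (0% of 7655, 9745, 13201 and 14348 genes), with 29, 43, 5 and 4 genes at an unadjusted p under 0.05, and DESeq2 called none either. With the replicate number as a block, 0, 24, 2 and 8 genes were called (0%, 0.246%, 0.0152% and 0.0558%), none of them a member. In those edgeR fits 308, 431, 278 and 475 genes were at an unadjusted p under 0.05. The main fit leaves the difference between replicates in its errors, so its lack of calls is no evidence that levels were equal. Of the 9 members, 7 passed the filter on low counts in OL-like cells, in COP-like cells and in the whole lineage, and 5 in OPC-like cells, *Mobp* and *Mal* in none. Values for the 7 are those of members that passed.

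In OL-like cells the estimated changes were small beside the errors of the main fit, which include the difference between replicates. The changes ran from −0.03 for *Ugt8a* (SE 0.33) to 0.34 for *Cldn11* (SE 0.49) on the log2 scale. Of the 7, 6 were above 0, with a median of 0.19 against −0.00 for all genes tested (edgeR, adjusted p = 0.9999 for each member). With the replicate block the SEs were smaller, from 0.17 for *Cnp* to 0.29 for *Mog*. *Cldn11* then changed by 0.38 (SE 0.17, edgeR adjusted p = 0.998). *Myrf*, at 206 and 235 CPM in the controls and 235 and 321 CPM in the mutants, changed by 0.33 (SE 0.31), and its groups overlapped. *Mobp* was the 1 member of 9 with both mutant libraries above both controls, where 10.1% of genes at 20 CPM or more were so ordered. Without a filter on low counts *Mobp* was called (log2 change 4.21, edgeR adjusted p = 4.74e-13), and it was also called without mutant replicate 2 (5.13, adjusted p = 0.0123). Once the single richest cell was left out, the unfiltered *Mobp* change was 1.76 with an adjusted p of 0.999.

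In COP-like cells all 7 estimates were above 0, with a median of 0.84 against 0.00 for all genes tested, but none was called. When cells were clustered without centring in each library, the 7 estimates were lower but for *Myrf*, from 0.30 for *Mag* and *Ugt8a* to 0.65 for *Cldn11*. *Mbp* was at 975 and 936 CPM in control replicates 1 and 2 and at 996 and 2339 CPM in mutant replicates 1 and 2, with mutant replicate 1 close to the controls and mutant replicate 2 far above them. Its log2 change was 0.84 (SE 0.51), and *Mag* (0.97, SE 0.53), *Cldn11* (1.07, SE 0.65), *Mog* (1.05, SE 0.72), *Ugt8a* (0.68, SE 0.33), *Cnp* (0.53, SE 0.50) and *Myrf* (0.29, SE 0.32) had an edgeR adjusted p of 1 as well. The *Mog* change rested on 1 UMI in the COP-like cells of control replicate 2. Within replicate 1 the ratio of mutant to control was 1.02 for *Mbp*, 1.31 for *Mag*, 1.06 for *Cnp*, 1.11 for *Cldn11*, 1.23 for *Ugt8a* and 1.21 for *Myrf*. Within replicate 2 the ratios were 2.50, 2.36, 1.67, 2.70, 1.97 and 1.19 in the same order, from 31 COP-like cells in the control and 39 in the mutant. With the replicate block the lowest adjusted p-values were 0.101 for *Mag* and 0.157 for *Cldn11*. Without mutant replicate 2 the change was 0.07 for *Mbp* and *Myrf*, 0.15 for *Mag*, −0.13 for *Cnp* and −0.11 for *Cldn11*, and 0.41 for *Ugt8a* and 1.15 for *Mog*. *Mbp*, *Mog* and *Ugt8a* had both mutant libraries above both controls, an order held by 8.84% of genes at 20 CPM or more. *Mal*, with 1 UMI in each control, had the reverse order. *Mog* and *Mal* were under 20 CPM on average, so that share does not cover them.

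The make-up of the COP-like cells also differed between the libraries. Among COP-like cells, late cells made up 36.6% and 22.6% in the controls (replicates 1 and 2) and 38.6% and 53.8% in the mutants. By a two-sided exact permutation test p was 0.333, and no smaller value is possible with 2 libraries per group. In early COP-like cells alone, an alternative added after the data were seen, the changes were 0.54 for *Mbp*, 0.17 for *Mag*, 0.33 for *Cnp*, 0.98 for *Cldn11*, 0.69 for *Ugt8a* and 0.21 for *Myrf*, none of them called. In those early cells 3 of 9 members (*Mag*, *Mog* and *Ugt8a*) had both mutant libraries above both controls. Of genes at 20 CPM or more, 8.88% were so ordered. In late COP-like cells it was 0 of 9 members, against 9.22% of such genes. *Mag* was barely apart in the early cells, at 30.9 and 33.6 CPM in the controls and 33.8 and 38.3 CPM in the mutants. *Mog*, at a mean of 3.93 CPM, is not covered by the share of genes. It rested on 3 and 1 UMIs in the early cells of the controls and on 9 and 2 in those of the mutants. The 7 listed OPC markers summed to 3421 and 2753 CPM in the COP-like cells of the controls and to 2881 and 1594 CPM in those of the mutants. The 7 astrocyte markers summed to 338 and 527 CPM in the controls and 138 and 129 CPM in the mutants. Pericyte or mural cell markers summed to 4.08 and 141 CPM in the controls and 4.73 and 14.9 CPM in the mutants. Fibroblast markers summed to 2.04 and 54.0 CPM against 1.67 and 1.49 CPM, and blood cell markers to 4.59 and 1.86 CPM against 503 and 17.8 CPM. The part of these differences in the change of the members was not tested.

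In OPC-like cells the 5 members tested ran from −0.20 (*Ugt8a*, SE 0.30) to 0.32 (*Cldn11*, SE 0.83), with a median of 0.11 against 0.01 for all genes tested. *Mbp* alone had both mutant libraries above both controls (controls 44.8 and 39.1 CPM, mutants 45.0 and 51.7 CPM). That order was held by 5.01% of genes at 20 CPM or more. *Mbp* was again the 1 member so ordered in dividing OPC-like cells, where the share of such genes was 7.01%. Summed over the whole lineage, the 7 members tested ran from 0.13 (*Ugt8a*, SE 0.30) to 0.57 (*Mog*, SE 0.88), with a median of 0.37 against 0.01 for all genes tested. There, both mutant libraries were above both controls for 7 of 9 members (all but *Mog* and *Ugt8a*), where 4.3% of genes at 20 CPM or more had that order. *Mobp* and *Mal* were under 20 CPM on average, so that share of genes does not cover them, and their order rested on few UMIs. In OL-like cells mutant replicate 2 held 4 *Mobp* UMIs, against 6 and 1 in control replicates 1 and 2. All 23 *Mal* UMIs of the lineage in mutant replicate 1 came from 1 cell. *Mbp* was there at 762 and 506 CPM in the controls (replicates 1 and 2) and at 821 and 833 CPM in the mutants, a change of 0.37 (SE 0.31, edgeR adjusted p = 0.99999). It was 0.08 without control replicate 2 and 0.74 without control replicate 1. At a mitochondrial limit of 5% the changes in the whole lineage were larger, from 0.35 for *Ugt8a* to 1.06 for *Mog* and 0.78 for *Mbp*, and none was called. A change in the sum can come from the share of later steps or from levels within a step. The sum alone does not tell these apart.

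**Figure D5:**
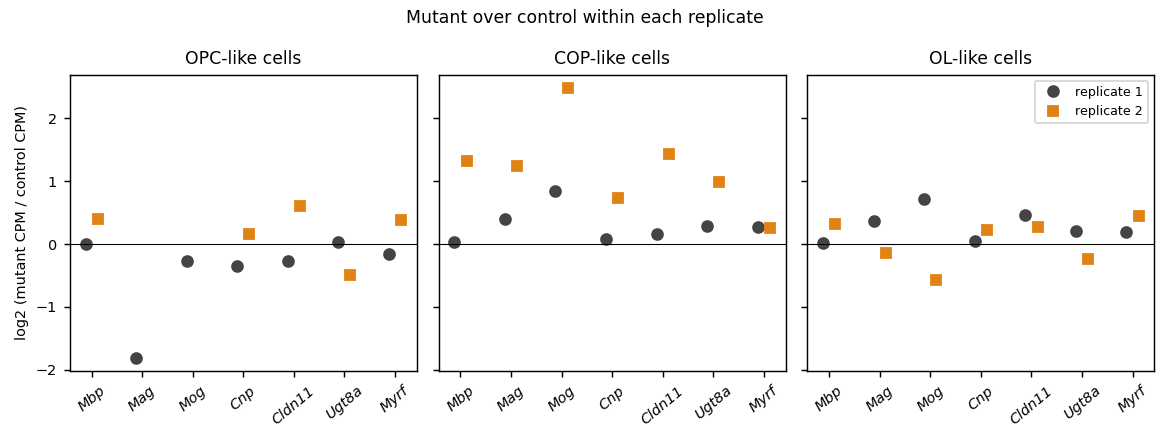
Log2 ratio of mutant to control CPM within replicate 1 (grey circles) and replicate 2 (orange squares) in OPC-like, COP-like and OL-like cells, with a line at no change. The 7 members drawn are those that passed the filter on low counts in COP-like and OL-like cells. In COP-like cells the replicate 2 ratios are above those of replicate 1 for every gene but *Myrf* (1.19 against 1.21 as plain ratios), and ratios with a library at 0 are not drawn (*Mag* and *Mog* of replicate 2 in OPC-like cells).

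The share of OL-like cells in the lineage did not differ between genotypes beyond the spread of libraries. It was 5.27% (exact 95% interval 3.93 to 6.91) and 2.35% (1.22 to 4.07) in control replicates 1 and 2 and 5.45% (4.34 to 6.73) and 2.56% (1.53 to 4.02) in mutant replicates 1 and 2, a mean difference of 0.191 percentage points (exact permutation test, two-sided, p = 0.667). At a mitochondrial limit of 5% the difference was 1.12 percentage points. COP-like and OL-like cells together were 19.4% and 8.43% of the lineage in the controls and 21.0% and 8.12% in the mutants. Both replicate 1 libraries lay above both replicate 2 libraries in each of these shares. The shares are within the lineage and do not give its size among all kept cells. The lineage held 929 of 5710 and 510 of 2973 kept cells in control replicates 1 and 2. In mutant replicates 1 and 2 it held 1469 of 5659 and 702 of 3281. That difference was not tested. The paper reports higher proportions of OPCs and oligodendrocytes among mutant cells.

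The change with genotype was also compared between OL-like and COP-like cells, by edgeR's test of the interaction of genotype and step with a term for the library. The difference (OL-like minus COP-like, log2) was below 0 for 6 of 7 members, at −0.64 for *Mag*, −0.59 for *Ugt8a* and −0.51 for *Mbp*, but none was called (adjusted p = 0.617, 0.607 and 0.751). It was called for 20 of the 9165 genes tested (0.218%), none of them a member. Without mutant replicate 1 the difference was −1.25 for *Mag* (adjusted p = 0.00258) and −0.86 for *Mbp* (adjusted p = 0.00966), and both were then called. That fit has 1 mutant library, which is assumed to vary like the controls.

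No gene of the 3 lists was called at any step, with or without the replicate block. In COP-like cells, 20 of the 23 other myelin genes tested were above 0, with a median of 0.53, and *Cd9* (0.24, SE 0.58) and *Sirt2* (0.29, SE 0.45) were among the most abundant. In OL-like cells 15 of 22 were above 0, with a median of 0.17. The median of the regulators was 0.17 in COP-like and 0.09 in OL-like cells, and that of the genes of earlier steps was −0.00 and 0.23.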

How the data were processed

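The authors aligned reads to mm10 and deposited, for each library, unnormalized counts of UMIs per gene and barcode. The submitters' processing notes name Cell Ranger 3.0, the study's methods and the headers of replicate 1 name 7.0.0, and the headers of replicate 2 name 5.0.1. Groups and replicate numbers came from the sample labels. Barcodes outside 2000 to 40000 UMIs, under 1000 genes or above 10% mitochondrial UMIs were left out. Log-normalized values were centred and scaled in each library, and cells were clustered in scanpy 1.11.5 (2000 variable genes, 30 components, 15 neighbours, resolution 1), with members and other myelin genes left out. The COP-like cluster was divided again (10 components, resolution 0.2), settings chosen after the cells had been seen. Clusters were called X-like from fixed marker lists, and the parts of the COP-like cluster were named by their relative levels of OL and OPC markers. No cell was removed as a doublet.

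Counts were summed per step and library where each library had at least 10 cells, passed through filterByExpr and TMM scaling, and tested by edgeR 4.0.16 (R 4.3.3) with genotype as the sole term. Early and late COP-like cells were summed for this test. Replicate numbers do not pair animals. Their deviations correlated across genes in every fit (r = 0.691 to 0.875) and coincide with the software version and with sex-linked genes, so a replicate block was an alternative. The others were DESeq2 1.42.0, no scaling, no filter on low counts, a 5% mitochondrial limit, doublets removed by Scrublet, no centring, members kept for clustering, cells not thinned, means over cells, and each library left out. The fits were also run on simulated counts with 200 genes changed 2-fold. Their spread was set to a fixed value and not taken from these data, so they do not give the power reached here. Shares of cells carry exact Clopper-Pearson 95% intervals, which cover counting error alone.

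The members and all gene lists were chosen with earlier results of these data known. Of each list, the text names up to 5 genes with the largest change past the threshold or, if none, the 3 most abundant, as well as the 5 genes nearest to the members in pattern and the 3 nearest to *Myrf*, except for a gene that is not reported here. Genes named outside this rule (*Omg*, *Klf9*, *Pdgfra*, *Enpp6* and other markers) were chosen after their values were seen. Gene positions are from GENCODE vM21, and promoter windows from RefSeq.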

Additional observations from a re-analysis of the deposited data

Results flagged for a closer look

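Barcodes above the ceiling of 40000 UMIs, which no comparison uses, held more of all 9 members in mutant replicate 1, and of all but *Mag* and *Mobp* in mutant replicate 2, than in either control library. Of all genes at a mean of 1 CPM or more in these barcodes, 8.43% had both mutant libraries above both controls. The difference between genotypes was not tested, and *Mog* rested on 3 UMIs in mutant replicate 2. In mutant replicate 1 (72 barcodes) the summed level was 1645 CPM for *Mbp*, 581 CPM for *Mag*, 93.5 CPM for *Mog*, 561 CPM for *Cnp*, 514 CPM for *Mobp*, 25.3 CPM for *Mal*, 267 CPM for *Cldn11*, 300.4 CPM for *Ugt8a* and 41.2 CPM for *Myrf*. In mutant replicate 2 (30 barcodes) it was 212 CPM for *Mbp*, 2.03 CPM for *Mog*, 161 CPM for *Cnp*, 31.2 CPM for *Mal*, 98.9 CPM for *Cldn11*, 31.2 CPM for *Ugt8a* and 12.2 CPM for *Myrf*. The controls held 62.6 and 1.15 CPM of *Mbp*, 85.4 and 46.0 CPM of *Cnp*, and no *Mobp* UMI. Almost all of the *Mobp* signal came from the 5 barcodes of mutant replicate 1 described above. The same 5 held 645, 274, 217, 201 and 530 of the 2130 *Mag* UMIs of that library's barcodes above the ceiling. They also held 171, 58, 1, 1 and 96 of its 343 *Mog* UMIs, and 1048, 783, 927, 446 and 1108 of its 6037 *Mbp* UMIs. The summed levels of mutant replicate 1 therefore rest in large part on these few barcodes.

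The change with genotype differed between OL-like and COP-like cells for 20 genes by the edgeR interaction test, and no member was among them.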

How the results depend on the processing

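The counts of genes called, 0 at each step, were 3 in OL-like (*Mobp* among them) and 14 in COP-like cells with no filter on low counts, and 2 in OL-like cells with neither that filter nor the cell richest in *Mobp*. With the replicate block they were 24 in COP-like cells, 2 in OPC-like cells and 8 in the whole lineage, and no member was called. With a library left out, the OL-like count ran from 0 to 1 (*Mobp*, without mutant replicate 2), and the count of genes whose change differed between OL-like and COP-like cells, 20, from 5 (without control replicate 1) to 21. The difference in the OL-like share of the lineage ran from −1.27 to 1.65 percentage points with a library left out. The mean share of OL-like cells with a UMI of a member was 51.3% after thinning and 70.3% without it.

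Of 195 fits of 26 member changes under the other alternatives, 189 kept their direction, and no tested member was called in any. The 6 that turned were *Mag* (−0.040) and *Mog* (−0.23) in OL-like cells without the cell richest in *Mobp*, the same (−0.010 and −0.20) with no filter as well, *Cnp* in OPC-like cells at the 5% mitochondrial limit (0.073) and *Cldn11* in OPC-like cells without centring (−0.15). In OL-like cells the fits with doublets removed gave the same values as the main fits, so their direction could not turn. With a library left out, 19 of 102 fits turned. In OL-like cells the range was −0.11 to 0.43 for *Mbp*, −0.26 to 0.51 for *Mag*, −0.64 to 0.78 for *Mog*, −0.32 to 0.57 for *Cnp*, −0.10 to 0.94 for *Cldn11* and −0.25 to 0.24 for *Ugt8a*. In COP-like cells it was −0.13 to 0.98 for *Cnp* and −0.11 to 1.71 for *Cldn11*. In OPC-like cells it was −0.56 to 0.31 for *Cnp*, −0.79 to 0.96 for *Cldn11*, −0.55 to 0.064 for *Ugt8a* and −0.18 to 0.36 for *Myrf*. In the whole lineage it was −0.73 to 1.37 for *Mog* and −0.18 to 0.37 for *Ugt8a*. The difference of change between OL-like and COP-like cells ran from −0.90 to 0.15 for *Cldn11* and from −0.063 to 0.15 for *Myrf*. The cause of these turns was not tested.

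The COP-like level was 18.2% of the OL-like level in the median over members, and 15.8 to 21.9% under the alternatives, the lowest without centring and from the replicate 1 libraries alone. The fits without the richest cell, in early COP-like cells alone and of the difference with a library left out were added after the data were seen, as were the alternatives for the OL-like share. The genotype test was not run in OL-like cells without centring, which left replicate 2 without such cells, or in OL-like and COP-like cells at the 5% mitochondrial limit, which left a library under 10 cells. The 12 and 18 OL-like cells of the replicate 2 libraries limit the precision of the OL-like values. Likewise, the 31 and 39 COP-like cells of these libraries limit that of the COP-like values.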
